A study of Danio rerio with 12 samples.

Results

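Tributyltin chloride (TBT) at 100 nM was compared with its solvent in whole zebrafish larvae, using 6 of the 12 RNA-seq libraries of the study: the 3 labelled TBT 100 nM and the 3 labelled TBT Ctrl. All 6 were wild-type eleutheroembryos, larvae that have hatched but still live on yolk, taken at 5 days post fertilization (dpf). The 100 nM larvae had been in TBT from 2 to 5 dpf, the controls in water with the same dimethyl sulfoxide content (0.2% v/v), which every group received. Each library was made from the poly(A) RNA of a pool of 10 whole larvae. The other 6 libraries, at 3 and 30 nM, entered the model to help estimate the spread between pools, and counted in the filter that chose the genes tested. Their values are set beside those at 100 nM for some genes, with a direct difference between 100 and 30 nM for some. No source used here tells whether the pools within a group were raised from different clutches or in different vessels, so p-values measure the spread between pools, which may be technical.

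TBT is an organotin once used in antifouling paint. It binds the retinoid X receptors, the common partners of many nuclear receptors, and through them can switch on lipid genes. Organotins are also known to act on mitochondria and on protein thiols, and the stress pathways that cells use against such damage have well-defined target genes: ATF4 for amino acid supply, NRF2 for glutathione, and the heat shock and hypoxia responses. A 5 dpf larva is a growing animal whose brain, retina, gut and pancreas still hold dividing cells, so genes of DNA replication and mitosis are expressed throughout its body.

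Values are normalised counts, reads per gene divided by a scaling factor per library. They summed to 26515823 to 30407574 in the control libraries and to 29687308 to 35772586 at 100 nM, with 24903 to 25183 genes above 0 in each. Whole-larva RNA holds every tissue, and the summed levels of tissue marker lists differed between pools of the same group. Epidermis markers summed to 641224 in control replicate 2 and to 1339615 and 2113116 in the others, and to 900899 in 100 nM replicate 2 and 1896393 and 2521769 in the others. Neuron markers ran the other way, 129231 in control replicate 2 against 60428 and 88375, and 85301 in 100 nM replicate 2 against 47014 and 54001. On the first principal component of the 12 libraries, which held 29.3% of the variance, replicate 1 scored lowest and replicate 2 highest in every group. The extremes were control replicate 2 at 71.7 and 100 nM replicate 1 at −56.6. On the second, which held 28.8%, the 100 nM libraries scored 39.9 to 72.0 and every other library 3.2 or less. In bulk RNA, fewer cells of a type and less RNA per cell cannot be told apart.

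Of 22404 genes tested on log2(normalised count + 1), 3926 passed the threshold (limma, Benjamini-Hochberg adjusted p below 0.05), which is 17.5% of them. There were 2157 genes higher at 100 nM (9.63%) and 1769 lower (7.9%). Changes over 2-fold numbered 612 rises and 537 falls, changes over 4-fold 105 and 102, and changes over 8-fold 31 and 23. The 3 libraries of each group did not overlap for 6130 genes (27.4%). Scaling the libraries to equal totals left the number of calls nearly the same, 3992, but moved the median log2 difference of all genes from −0.02 to −0.20 and gave 1127 rises (5.03% of all genes) and 2865 falls (12.8%), so that 28.2% of calls were higher where the deposited scaling gave 54.9%. In both scalings, 1126 genes were called higher and 1767 lower. Fitting only the 6 libraries gave 708 rises (3.23%) and 464 falls (2.12%) among 21900 genes, 5.35% in all, and leaving out control replicate 3, the library with the most effect, 1286 and 1003. When each of the 6 libraries was left out in turn, 1169 rises and 860 falls were called every time.

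**Figure D1:**
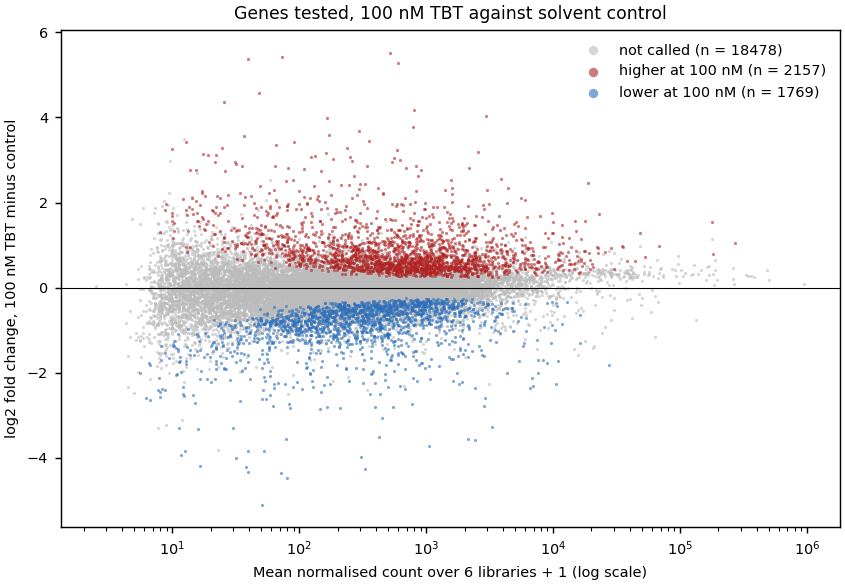
Log2 fold change of 100 nM TBT over control (vertical axis) against the mean normalised count over 6 libraries plus 1 (horizontal axis, log scale), 1 point per gene tested. Red points are the 2157 genes called higher, blue points the 1769 called lower and grey points the genes not called; few genes with a low mean are called, and those that are lie far from 0.

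The share called rose with expression level up to a mean of 10000, as the plot of fold change against level shows. It was 6.38% of 2869 genes with a mean under 30 normalised counts, where called genes had a median absolute log2 fold change of 1.59. It was 25.6% of 3954 genes between 1000 and 10000, where 709 rose and 302 fell with a median of 0.61. The median standard error of a difference was 0.41 in the first of these classes and 0.14 in the second. Above 10000 the share was lower again, 21.0% of 362 genes, with 66 rises and 10 falls. Among 262 long intergenic noncoding genes 16 rose and 7 fell (8.78%, median level 38.3), against 17.9% of 21565 protein-coding genes (median level 286).

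Among called genes with a symbol, few went from silent to expressed. By a rule of 3 or less in every library of one group and 20 or more in every library of the other, 3 of them were switched on and 3 off. Other genes were not counted. lepb, a leptin gene, held 0, 1 and 2 normalised counts in the controls and 62, 87 and 77 at 100 nM (adjusted p = 7.14e-05). It was at 0 in each 30 nM library. il17c, an epithelial cytokine gene, went from 0, 2 and 3 to 64, 35 and 44 (adjusted p = 0.00142). si:dkey-96g2.2 went from 3 in each control to 79, 31 and 22 (adjusted p = 0.00606). In the other direction, zgc:92590 fell from 58, 60 and 176 to 1, 3 and 1 (adjusted p = 4.74e-05) and ifit14, of the interferon-induced IFIT family, from 23, 20 and 48 to 0, 1 and 1 (adjusted p = 0.000522). METTL21C, a methyltransferase gene of muscle, fell from 24, 33 and 27 to 2, 1 and 3 (adjusted p = 0.000101). Folds of genes this low depend on the pseudocount of 1 and are not given. lepr, the leptin receptor gene, chosen after its values were seen, rose as well, from 812, 610 and 764 to 1540, 1284 and 1457 (log2 fold change 0.98 ± 0.12 SE, adjusted p = 0.00036).

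The 8 rises and 8 falls of lowest p were picked among called genes with a mean of at least 100 and groups that did not overlap. Their separation therefore follows from the choice. lyve1a (ENSDARG00000075833), which encodes a receptor for hyaluronan on lymphatic and some venous endothelium, held 47, 69 and 61 normalised counts in the controls and 644, 637 and 640 at 100 nM. That is a log2 difference of 3.44 ± 0.14 SE (limma adjusted p = 1.34e-06). At 30 nM it was 77, 78 and 82, and the direct difference between 100 and 30 nM was 3.00 (adjusted p = 3.47e-06). scd, the stearoyl-CoA desaturase gene, held 18, 18 and 19 in the controls and 290, 364 and 267 at 100 nM (3.98 ± 0.21 SE, adjusted p = 4.13e-06). It had already reached 151, 201 and 112 at 30 nM. opn1lw1 (ENSDARG00000044862), a red cone opsin gene, held 64, 111 and 74 in the controls and 1363, 1957 and 1199 at 100 nM (4.17 ± 0.24 SE, adjusted p = 4.75e-06). Its 30 nM values, 1331, 1245 and 1301, lay inside the 100 nM range (direct difference 0.19, adjusted p = 0.72). nfe2l2b, a paralog of the NRF2 gene, rose from 266, 294 and 292 to 1480, 1234 and 1427 (2.27 ± 0.13 SE, adjusted p = 4.79e-06). adma, an adrenomedullin gene whose product is a vasodilator peptide, rose from 146, 138 and 152 to 508, 541 and 555 (1.87 ± 0.10 SE, adjusted p = 4.13e-06). The remaining rises were slc16a9b, of the monocarboxylate transporter family (1.50), eepd1 (1.96) and si:cabz01068815.1.

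Among the falls of lowest p, tppp3, which encodes a tubulin polymerization promoting protein, went from 842, 611 and 620 to 112, 85 and 95 (−2.81 ± 0.17 SE, adjusted p = 5.35e-06). hspb11, a small heat shock protein gene, went from 838, 777 and 864 to 169, 183 and 138 (−2.34 ± 0.13 SE, adjusted p = 4.18e-06). Its 30 nM values of 468, 493 and 391 lay between the 2 groups. phospho1, the gene of a phosphatase that starts bone mineralisation, fell from 376, 296 and 424 to 97, 97 and 96 (−1.89 ± 0.14 SE, adjusted p = 1.73e-05). dlgap5 and tpx2, both of the mitotic spindle, fell by 1.38 each on the log2 scale, and palmda, myef2 and si:dkey-238i5.2 complete the set. palmda went the other way at 30 nM, where its values were 540, 490 and 489 against 382, 360 and 365 in the controls and 143, 149 and 150 at 100 nM. None of these 16 genes lost its call when a library was left out, with equal totals or with only the 6 libraries. Genes chosen by lowest p in the same libraries were likely to keep it.

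**Figure D2:**
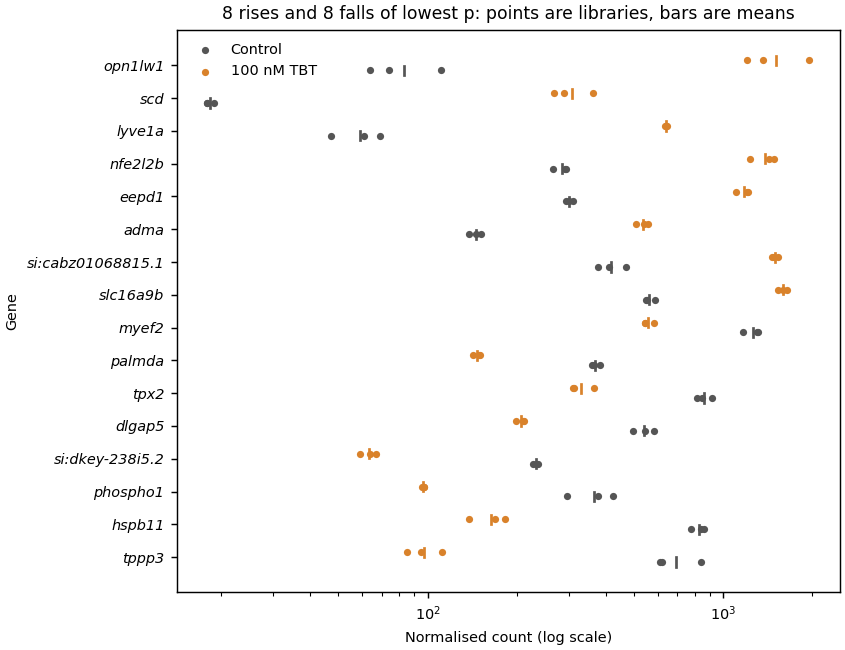
Normalised count (log scale) in each control library (grey) and each 100 nM library (orange) of the 16 genes of lowest p, with the mean of each group as a bar. Only genes whose groups did not overlap were eligible, so the groups of each gene are apart. The 100 nM points of lyve1a (637 to 644) and phospho1 (96 to 97) nearly coincide.

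Cell division genes fell almost as a body. Of 53 tested genes of mitosis and the spindle, 52 fell and none rose, with a median log2 fold change of −1.08, close to a 2-fold lower level. mki67, the gene of the proliferation antigen Ki-67, held 2339, 3143 and 2677 normalised counts in the controls and 796, 1137 and 1043 at 100 nM (−1.46 ± 0.16 SE, limma adjusted p = 0.000209). kif20a, a kinesin gene of cytokinesis, went from 356, 355 and 320 to 120, 134 and 135 (−1.4 ± 0.12 SE, adjusted p = 3.83e-05), and hmmr, of spindle assembly, from 277, 339 and 272 to 99, 122 and 115 (−1.39 ± 0.14 SE, adjusted p = 0.000123). The control and 100 nM libraries did not overlap for any of these genes, and the 3 treated pools moved alike: the median member lay 1.12, 1.16 and 0.96 log2 units below the control mean in replicates 1, 2 and 3. ccnb1, the cyclin B1 gene, and cdk1, the gene of its kinase, both chosen after their values were seen, fell by 1.39 (adjusted p = 3.32e-05) and 1.14 (adjusted p = 9.03e-05). The exception was pttg1, the securin gene, at 82, 45 and 78 against 48, 40 and 56 (−0.47, adjusted p = 0.238). The count of 52 was the same with equal totals, and 43 fell with only the 6 libraries.

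At 30 nM these genes lay nearer to the control. mki67 held 1973, 2294 and 2004 at 30 nM and kif20a 290, 314 and 286. The direct difference between 100 and 30 nM was −1.09 for mki67 (adjusted p = 0.00209) and −1.19 for kif20a (adjusted p = 0.00021). cdk1 held 568, 591 and 640 at 30 nM, inside or next to the control range of 577 to 630, and differed from 100 nM by −1.13 (adjusted p = 0.00021).

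DNA replication genes fell with those of mitosis, 40 of 53 with no rise and a median of −0.75. rrm1, a ribonucleotide reductase subunit gene, went from 2788, 2593 and 2835 to 1243, 1062 and 1237 (−1.22 ± 0.09 SE, adjusted p = 2.29e-05). cdc45, of the replicative helicase, went from 206, 186 and 197 to 89, 94 and 82 (−1.14 ± 0.13 SE, adjusted p = 0.000186), and chaf1b, of the chromatin assembly factor that follows the fork, from 488, 515 and 486 to 221, 214 and 258 (−1.1 ± 0.12 SE, adjusted p = 0.000171). Every library at 100 nM lay below every control library for each of them. cdt1, the replication licensing gene, was the 1 member with a positive difference, at 168, 191 and 198 in the controls and 176, 215 and 226 at 100 nM (0.14, adjusted p = 0.518). With equal totals 47 of the 53 fell, and with only the 6 libraries 23. Related families moved the same way. Of 47 kinesin genes 14 fell and none rose. These falls include kif11, kif18a, kif20a, kif20ba, kif23, kif2c and kif4, which were already counted in the mitosis list. Of 22 genes of the tubulin family, which here includes gamma-tubulin complex genes, 10 fell and none rose. The tubulin count was 5 without control replicate 3, 6 without 100 nM replicate 1 and 2 with only the 6 libraries. tubb2b, a beta-tubulin gene, went from 12634, 13552 and 15287 to 7378, 5931 and 7629 (−0.99 ± 0.12 SE, adjusted p = 0.000341). h1fx, a linker histone gene, went the other way, from 2481, 2014 and 2276 to 6989, 6271 and 4673 (1.39 ± 0.14 SE, adjusted p = 9.85e-05).

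In the list for p53 and apoptosis, 40 members were tested, of which 12 were called higher and 1 lower (median 0.32). The counts were 7 and 2 with equal totals, and 4 and 1 with only the 6 libraries. gadd45aa, a growth arrest gene, rose from 449, 174 and 287 to 1195, 747 and 1083 (1.81 ± 0.30 SE, adjusted p = 0.00193). phlda3, an inhibitor of the kinase Akt, rose from 171, 170 and 155 to 410, 417 and 413 (1.32 ± 0.10 SE, adjusted p = 2.44e-05). btg2, an antiproliferative gene that is also an immediate early gene, fell (−2.00, adjusted p = 0.000708). cdkn1a, a cell cycle inhibitor gene chosen after its values were seen, held 393, 209 and 277 against 236, 163 and 235 (−0.44, adjusted p = 0.249).

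**Figure D3:**
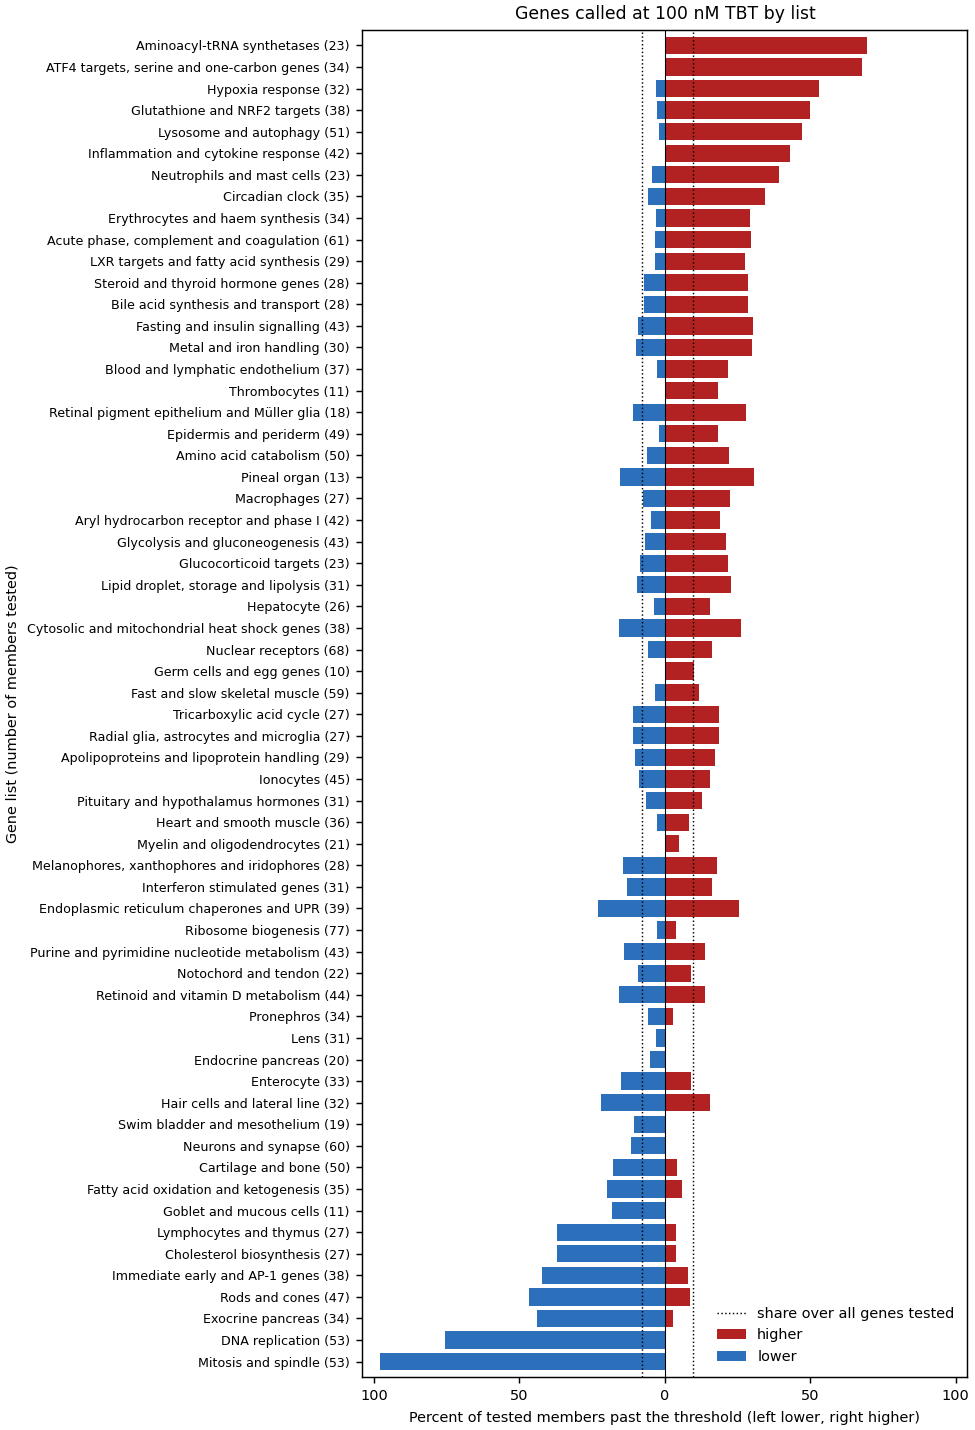
Percent of the tested members of the pathway and marker lists shown called lower (blue, to the left) or higher (red, to the right) at 100 nM TBT, with the number tested in brackets; dotted lines mark the shares over all genes, 7.9% lower and 9.63% higher. Mitosis and DNA replication stand at the bottom with 52 of 53 and 40 of 53 lower, the tRNA synthetases and ATF4 targets at the top with 16 of 23 and 23 of 34 higher. The list of the p53 response and apoptosis is not shown.

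Amino acid supply genes had the highest shares of rises among the lists plotted. Of 34 genes of the ATF4 response, serine synthesis and one-carbon metabolism, 23 rose and none fell (median 0.75), and of 23 cytosolic aminoacyl-tRNA synthetases and their partners, which charge tRNAs for translation, 16 rose and none fell (median 0.56). ppp1r15b, the gene of a regulatory subunit that brings a phosphatase to the initiation factor eIF2alpha, held 180, 139 and 154 in the controls and 925, 498 and 820 at 100 nM (2.2 ± 0.20 SE, adjusted p = 7.14e-05). slc7a11, the cystine transporter gene, went from 103, 116 and 143 to 644, 346 and 540 (2.04 ± 0.25 SE, adjusted p = 0.000337), and sesn2, a stress-induced inhibitor of mTORC1, from 243, 165 and 173 to 702, 538 and 565 (1.64 ± 0.17 SE, adjusted p = 0.000129). For each of the 3 genes the groups did not overlap, and replicate 2 was the lowest at 100 nM. The transcription factor gene atf4a (0.76, adjusted p = 0.000761) and asns, the asparagine synthetase gene (0.75, adjusted p = 0.00108), chosen after their values were seen, rose too. aars, which charges alanine tRNA, went from 5326, 4597 and 4908 to 9851, 7527 and 9658 (0.86 ± 0.12 SE, adjusted p = 0.000834), and eprs, which charges glutamate and proline tRNAs, from 3865, 4526 and 3853 to 7280, 7760 and 6699 (0.83 ± 0.10 SE, adjusted p = 0.000333). With equal totals 18 ATF4 genes and 13 synthetases rose, and with only the 6 libraries 16 and 8. At 30 nM, ppp1r15b held 160, 155 and 188 and eprs 4031, 3670 and 3591, and the direct differences from 100 nM were 2.11 (adjusted p = 0.000202) and 0.94 (adjusted p = 0.000318).

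Glutathione and NRF2 target genes rose in 19 of 38 cases and fell in 1 (median 0.46). Besides nfe2l2b and slc7a11, which belongs to both lists, gclm, a subunit gene of the enzyme that limits glutathione synthesis, went from 295, 432 and 314 to 916, 787 and 919 (1.35 ± 0.15 SE, adjusted p = 0.00017). It was chosen after its values were seen. gstp2, a glutathione transferase gene, varied more between pools than between groups, at 162, 1173 and 358 against 1220, 5338 and 1343, and although called (adjusted p = 0.0361) it lost the call without control replicate 1 or 3, without 100 nM replicate 2 or 3, with equal totals, without the variance trend and with only the 6 libraries. The list had 14 rises and 3 falls with equal totals and 10 rises with only the 6 libraries.

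Chaperone genes went both ways in each list described here, of which the first does not separate cytosolic from mitochondrial genes. Among 38 cytosolic and mitochondrial heat shock genes 10 rose and 6 fell. hsp70.3, an inducible HSP70 gene with near-identical neighbours that may share its reads, rose from 205, 340 and 223 to 889, 1455 and 961 (2.1 ± 0.32 SE, adjusted p = 0.00129). hsp90aa1.1, an HSP90 gene of skeletal muscle in zebrafish, chosen after its values were seen, fell from 2012, 2343 and 2090 to 941, 853 and 768 (−1.33 ± 0.15 SE, adjusted p = 0.000209), as did hspb11. The falls numbered 3 without control replicate 2 or 3 and without 100 nM replicate 1 or 3, and the rises 5 with equal totals. Among 39 genes of endoplasmic reticulum chaperones and the unfolded protein response 10 rose and 9 fell. derl3, of the degradation machinery for misfolded proteins, went from 292, 367 and 396 to 889, 915 and 691 (1.24 ± 0.15 SE, adjusted p = 0.000303), and dnajb9b, a co-chaperone gene, from 87, 116 and 92 to 212, 214 and 189 (1.06 ± 0.15 SE, adjusted p = 0.000834). Chosen after their values were seen, calr, the calreticulin gene, fell from 2390, 3354 and 2569 to 1287, 1523 and 1690 (−0.88 ± 0.14 SE, adjusted p = 0.00181), while hspa5, the gene of the main chaperone BiP, held 4652, 6129 and 4473 against 4180, 5582 and 5221 (−0.02, adjusted p = 0.946).

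Lysosome and autophagy genes rose in 24 of 51 cases and fell in 1 (median 0.36). sqstm1, the gene of the autophagy receptor p62, which NRF2 also activates, held 5307, 2789 and 3199 in the controls and 15281, 8836 and 11692 at 100 nM (1.69 ± 0.24 SE, adjusted p = 0.000825). ctsd, the cathepsin D gene, went from 6311, 5708 and 5691 to 12016, 11184 and 10949 (0.95 ± 0.09 SE, adjusted p = 7.14e-05), and 8 of 16 cathepsin genes rose with none lower, 5 without control replicate 3 or 100 nM replicate 1. The rises of the lysosome list numbered 13 with equal totals and 9 with only the 6 libraries. The fall was gusb, the beta-glucuronidase gene (−0.38, adjusted p = 0.0325), which lost its call without control replicate 1 or 3, without 100 nM replicate 1 or 2, without the variance trend and with only the 6 libraries.

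Hypoxia response genes rose in 17 of 32 cases and fell in 1 (median 0.50). BX005395.1, a gene the name table pairs with the symbol ADM, went from 167, 84 and 111 to 1141, 797 and 1004 (3.05 ± 0.23 SE, adjusted p = 2.23e-05), so that it and adma, the adrenomedullin genes of the list, both rose. igfbp1b, a binding protein gene that restrains insulin-like growth factor and responds to hypoxia and fasting, went from 515, 652 and 444 to 1386, 2465 and 1357 (1.65 ± 0.26 SE, adjusted p = 0.00159). Unlike BX005395.1, which held 187, 138 and 149 at 30 nM (direct difference 2.62, adjusted p = 0.000111), igfbp1b held 1098, 1525 and 1467 there (direct difference 0.31, adjusted p = 0.566). Of 3 genes chosen after their values were seen, vegfaa, the vascular growth factor gene, rose (1.1, adjusted p = 0.000366). slc2a1a, the gene of the glucose transporter GLUT1, was the fall, from 695, 1283 and 1153 to 385, 470 and 335 (−1.36 ± 0.21 SE, adjusted p = 0.00124), and ldha, a lactate dehydrogenase gene, held 5290, 10444 and 7869 against 6046, 7333 and 6682 (−0.18, adjusted p = 0.618). With equal totals, and with only the 6 libraries, 13 rose and 1 fell.

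**Figure D4:**
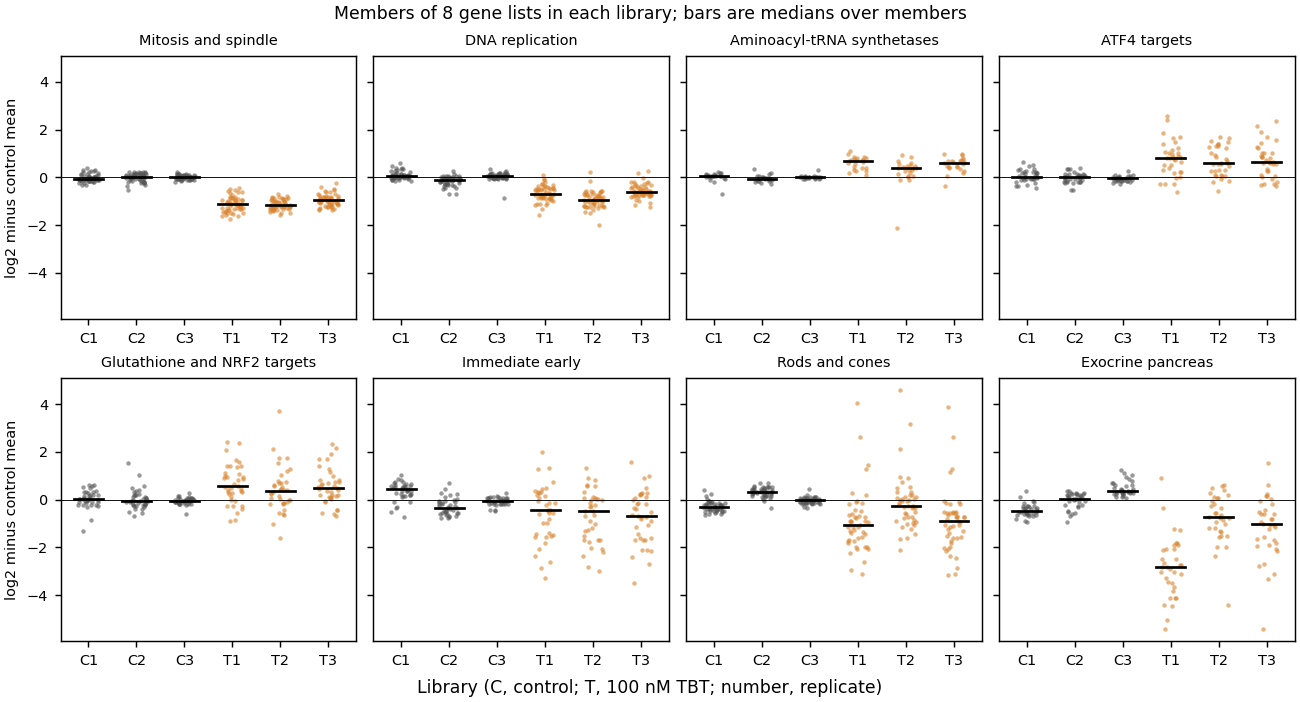
Each point is a member of 1 of 8 gene lists in a library (C, control; T, 100 nM; numbers are replicates), as log2 value minus that member's control mean (vertical axis), and each bar is the median over members. Mitosis medians lie at −1.12, −1.16 and −0.96 in the 3 treated libraries, while those of the exocrine pancreas spread from −2.84 to −0.72.

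Immediate early genes, which are switched on within minutes of a stimulus and encode transcription factors of the AP-1 and EGR families, were lower at 100 nM in 16 of 38 cases and higher in 3 (median −0.52). fosab, a c-Fos gene, held 8704, 3522 and 5905 in the controls and 573, 701 and 505 at 100 nM (−3.27 ± 0.43 SE, adjusted p = 0.000531). egr2a went from 447, 185 and 238 to 36, 37 and 41 (−2.80 ± 0.32 SE, adjusted p = 0.000227), and fosb from 204, 68 and 111 to 22, 22 and 26 (−2.26 ± 0.36 SE, adjusted p = 0.00151). In all 3 the control libraries were widely spread, with replicate 1 highest, while the treated libraries lay close together. Values at the other concentrations were low as well: fosab held 494, 491 and 958 at 30 nM and a mean of 917 at 3 nM, and egr2a a mean of 44.7 at 3 nM. The direct difference between 100 and 30 nM was −0.07 for fosab (adjusted p = 0.958) and 0.04 for egr2a (adjusted p = 0.965). The rises, chosen after their values were seen, were atf3, maff and fosl2. atf3, a stress-induced factor of the same family, went from 1034, 560 and 623 to 2821, 1806 and 2152 (1.64 ± 0.22 SE, adjusted p = 0.000534), and here 30 nM lay at 627, 519 and 550 (direct difference 1.98, adjusted p = 0.000355). The list's falls stayed between 14 and 20 when any library was left out, and its rises numbered 7 without control replicate 1.

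Among 29 genes of a mixed list, liver X receptor targets and fatty acid synthesis, 8 rose and 1 fell, some of them strongly. The median was 0.07, or −0.11 with equal totals. abca1a, the cholesterol efflux pump gene, went from 5209, 4086 and 4329 to 13243, 16608 and 15694 (1.74 ± 0.12 SE, adjusted p = 1.22e-05), with 7929, 7934 and 7772 at 30 nM, so that its groups were ordered by concentration without overlap. Cholesterol synthesis genes fell in 10 of 27 cases and rose in 1. sqlea, the squalene epoxidase gene, held 123, 219 and 187 against 55, 33 and 51 (−1.90 ± 0.28 SE, adjusted p = 0.000961), but 220, 224 and 225 at 30 nM. With only the 6 libraries the list of liver X receptor targets and fatty acid synthesis had 5 rises and cholesterol synthesis 5 falls. nr0b2b, the gene of a nuclear receptor that represses bile acid synthesis, went from 3, 6 and 4 to 41, 112 and 48 (adjusted p = 0.00012), and held 49, 58 and 65 at 30 nM.

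In the exocrine pancreas, the gland that makes digestive enzymes, 15 of 34 marker genes fell and 1 rose (median −1.45). SYCN, the syncollin gene of zymogen granules, went from 492, 735 and 1132 to 42, 143 and 112 (−3.07 ± 0.41 SE, adjusted p = 0.000555). ela2, an elastase gene with near-identical relatives, held 11399, 18203 and 18513 in the controls and 903, 9423 and 4083 at 100 nM (−2.26 ± 0.63 SE, adjusted p = 0.0304), with a wide spread among treated pools, and it lost its call without control replicate 2 or 3, without 100 nM replicate 3 and with only the 6 libraries. ptf1a, the transcription factor gene that specifies the pancreas, chosen after its values were seen, went from 34, 47 and 42 to 10, 13 and 19 (−1.52 ± 0.30 SE, adjusted p = 0.00614). The list summed to 214519, 299783 and 358494 in the controls and to 51090, 230077 and 147436 at 100 nM, so the summed levels overlapped, and its falls numbered 7 without control replicate 3 and with only the 6 libraries. No marker named in this paragraph was at 0 in a treated library. That includes zgc:92590, also on this list, which the rule given above counts as switched off (3 or less in each).

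Enterocyte genes fell in 5 of 33 cases and rose in 3, a share of 24.2% against 17.5% of all genes. The median was −0.88, and the falls numbered 3 to 16 depending on the library left out. They numbered 12 without control replicate 1, 16 without 100 nM replicate 2, and 3 without control replicate 2 or 100 nM replicate 1 or 3. slc15a1a, the gut peptide transporter gene, held 406, 910 and 392 in the controls and 30, 66 and 17 at 100 nM (−3.98 ± 0.43 SE, adjusted p = 0.000181). enpp7.1, which encodes an intestinal sphingomyelinase, went from 570, 1086 and 685 to 61, 67 and 69 (−3.50 ± 0.26 SE, adjusted p = 2.29e-05). Both were intermediate at 30 nM, at 131, 141 and 147 and at 238, 309 and 401. The summed level of the list did not follow these genes, at 105760 to 218691 in the controls and 111923 to 196227 at 100 nM. fabp6, a bile acid binding protein gene of the ileum, rose from 1839, 3741 and 4908 to 9323, 9512 and 6939 (1.4 ± 0.29 SE, adjusted p = 0.00685) but lost its call with only the 6 libraries.

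Liver markers changed in 5 of 26 cases, 4 higher and 1 lower, a share of 19.2% that is close to the 17.5% of all genes. fabp10a, a liver fatty acid binding protein gene, went from 6376, 10096 and 9317 to 17092, 25851 and 21641 (1.33 ± 0.20 SE, adjusted p = 0.00106), and ahsg2, which encodes a fetuin, from 72, 110 and 112 to 4, 8 and 6 (−3.84 ± 0.49 SE, adjusted p = 0.000435). Without 100 nM replicate 1 there were 8 rises. Plasma protein genes of the acute phase, complement and coagulation rose in 18 of 61 cases and fell in 2 (median 0.51), 11 and 2 both with equal totals and with only the 6 libraries. hpx, the gene of the haem carrier hemopexin, went from 5, 15 and 11 to 64, 198 and 92 (3.34 ± 0.51 SE, adjusted p = 0.00124), and saa, serum amyloid A, from 9, 3 and 9 to 56, 45 and 62 (2.90 ± 0.46 SE, adjusted p = 0.00164). At 30 nM hpx was at 3, 3 and 6, near the lowest control library.

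Photoreceptor genes fell in 22 of 47 cases and rose in 4 (median −0.62). grk1b, a cone opsin kinase gene, went from 649, 1328 and 876 to 103, 207 and 103 (−2.80 ± 0.31 SE, adjusted p = 0.0002). opn1mw1, a green cone opsin gene, went from 8394, 15792 and 12264 to 2529, 3802 and 2644 (−2.00 ± 0.24 SE, adjusted p = 0.000338), and opn1sw1, the ultraviolet cone opsin gene, from 27178, 57639 and 44198 to 10235, 14955 and 10424 (−1.81 ± 0.27 SE, adjusted p = 0.00119). Replicate 2 was the highest of each group for each of these 3 genes and the groups did not overlap. Against this, opn1lw1 rose, guca1a, which encodes a guanylate cyclase activator, rose from 13, 20 and 26 to 123, 176 and 122 (2.80 ± 0.28 SE, adjusted p = 0.000112), and opn1mw2, another green opsin gene, from 573, 846 and 485 to 1484, 2689 and 1485 (1.55 ± 0.26 SE, adjusted p = 0.00246). gngt2a was the other rise; opn1mw2 and gngt2a were named after their values were seen. rho, the rod opsin gene, chosen in the same way, held 28312, 44633 and 31863 against 15378, 33505 and 16412 (−0.75, adjusted p = 0.118), and opn1lw2, the second red opsin gene, 15320, 24749 and 20304 against 10517, 19020 and 12096 (−0.56, adjusted p = 0.144). Opsin genes have near-identical copies that can share reads, so single opsins are uncertain. The list summed to 191760 to 322952 in the controls and 119652 to 216275 at 100 nM, and with only the 6 libraries 10 fell. Lens crystallins, the other abundant eye proteins, were called in 1 of 45 cases. Of 13 genes known from the pineal organ, the light-sensing gland of the brain, 4 rose and 2 fell (median −0.14), opn1lw1 among them since it is on both lists. aanat2, the gene of the enzyme that sets melatonin output, rose from 57, 45 and 45 to 244, 411 and 225 (2.51 ± 0.21 SE, adjusted p = 4.07e-05).

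Neuron and synapse genes had a median of −0.50, yet only 7 of 60 passed the test, all lower (11.7%, against 7.9% of all genes). Leaving out control replicate 2 or 3 gave 0 falls, as did leaving out 100 nM replicate 1 or fitting the 6 libraries alone. The falls numbered 1 without 100 nM replicate 3, 21 without control replicate 1 and 19 without 100 nM replicate 2. With the replicate number as a block on 12 libraries, 36 fell and 1 rose. gad2, an enzyme gene of the transmitter GABA, held 1734, 4433 and 2755 against 711, 1730 and 804 (−1.47 ± 0.39 SE, adjusted p = 0.025), groups that nearly met at 1734 and 1730. elavl3, a general neuron marker, chosen after its values were seen, held 2100, 5173 and 3290 against 1629, 4137 and 2121 (−0.44, adjusted p = 0.451). gabra6a, the gene of a GABA receptor subunit of cerebellar granule cells, is not on the neuron and synapse list but in the neurotransmitter receptor family. In that family 2 of 97 genes rose and 5 fell (7.22%, against 17.5% of all genes). gabra6a was lower in every treated library, at 194, 327 and 223 against 33, 62 and 39 (−2.46 ± 0.32 SE, adjusted p = 0.000449), and kept its call with each library left out. The part of the summed marker levels, which put replicate 2 highest in both groups, was not tested.

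Hair cell and otolith genes went both ways, 5 higher and 7 lower of 32, and the falls numbered 3 without control replicate 3 or 100 nM replicate 1. stm, which encodes Starmaker, a protein of the otolith, the ear stone used for balance, went from 5723, 7162 and 4316 to 40174, 22714 and 32805 (2.47 ± 0.21 SE, adjusted p = 4.94e-05). At 30 nM it held 8008, 9259 and 7803 (direct difference 1.90, adjusted p = 0.000411). Some genes of a mixed list of cartilage and bone were lower. Of its 50 markers 9 fell and 2 rose (median −0.16), 3 and 1 with only the 6 libraries. Of all genes, 7.9% fell and 9.63% rose. The summed level of the list overlapped between the groups, at 354005 to 623486 in the controls and 260475 to 431285 at 100 nM. ifitm5, an osteoblast gene, went from 144, 190 and 203 to 68, 42 and 61 (−1.65 ± 0.20 SE, adjusted p = 0.000357), and entpd5a, which is required for mineralisation in zebrafish, from 211, 409 and 283 to 105, 102 and 142 (−1.33 ± 0.24 SE, adjusted p = 0.00336). Like phospho1, both kept their calls with each library left out.

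Pituitary and hypothalamus hormone genes rose in 4 of 31 cases and fell in 2, a share of 19.4% that is close to the 17.5% of all genes. smtlb, the somatolactin beta gene, held 2, 5 and 1 in the controls and 131, 129 and 162 at 100 nM (adjusted p = 1.6e-05), with 17, 19 and 11 at 30 nM (direct difference 3.11, adjusted p = 0.000683). prl, the prolactin gene, held 23, 84 and 27 against 129, 175 and 118 (1.86 ± 0.44 SE, adjusted p = 0.0138) and lost its call without control replicate 3 and with only the 6 libraries. gh1, the growth hormone gene, chosen after its values were seen, held 170, 318 and 214 against 242, 258 and 234 (0.11, adjusted p = 0.746). The rises numbered 2 without control replicate 1 or 100 nM replicate 2, 6 without control replicate 2, 1 without control replicate 3, 2 with equal totals and 1 with only the 6 libraries, smtlb.

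Inflammation and cytokine genes rose in 18 of 42 cases with no fall (median 0.60), 11 with equal totals and 11 with only the 6 libraries. il1b, the interleukin-1 beta gene, went from 65, 65 and 38 to 426, 301 and 644 (2.98 ± 0.40 SE, adjusted p = 0.000591), cxcl18b, a neutrophil-attracting chemokine gene, from 34, 49 and 51 to 152, 199 and 238 (2.11 ± 0.22 SE, adjusted p = 0.000149), and timp2b, which encodes an inhibitor of matrix metalloproteinases, from 408, 485 and 389 to 1569, 1346 and 1680 (1.84 ± 0.13 SE, adjusted p = 1.6e-05). At 30 nM il1b held 27, 17 and 50 and timp2b 365, 295 and 304, mostly below the control levels. mmp13a, a collagenase gene, went from 165, 329 and 212 to 2184, 910 and 1346 (2.61 ± 0.33 SE, adjusted p = 0.000391). Markers of the immune cells were divided. marco, a scavenger receptor gene of macrophages, rose from 89, 103 and 107 to 290, 417 and 366 (1.82 ± 0.21 SE, adjusted p = 0.000277). The macrophage gene mpeg1.1 fell from 743, 419 and 576 to 362, 287 and 356 (−0.76 ± 0.19 SE, adjusted p = 0.0202), a call lost without control replicate 3, 100 nM replicate 2 and with only the 6 libraries, and mpx, the neutrophil myeloperoxidase gene, held 326, 505 and 424 against 256, 296 and 299 (−0.54, adjusted p = 0.0588). Both were chosen after their values were seen. Macrophage markers summed to 5622 to 8092 in the controls and 7485 to 9652 at 100 nM. Of the 27 tested, 6 were higher and 2 lower (29.6%, against 17.5% of all genes). Neutrophil and mast cell markers, il1b and mmp13a among them, summed to 18728 to 30690 and 15898 to 29735. Of the 23 tested, 9 were higher and 1 lower (median 0.36), or 5 and 3 with equal totals. The part of these cells in the cytokine rises was not tested. Among 27 lymphocyte and thymus genes 10 fell and 1 rose, 6 falls without control replicate 3 or 100 nM replicate 3 and 1 with only the 6 libraries, including ccr9a, a thymus homing receptor gene (−1.29, adjusted p = 0.00442).

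Interferon genes did not move as a group, 5 higher and 4 lower of 31 (29.0%, against 17.5% of all genes). isg15, a ubiquitin-like gene induced by interferon, rose from 36, 21 and 24 to 198, 162 and 204 (2.78 ± 0.22 SE, adjusted p = 2.65e-05) while ifit14 fell to between 0 and 1. The falls numbered 2 without control replicate 3.

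Erythrocyte and haem genes rose in 10 of 34 cases and fell in 1 (median 0.55), 5 rises with only the 6 libraries and 16 without 100 nM replicate 2. hbz, by its symbol a zeta-globin gene, held 22, 14 and 30 in the controls and 1252, 914 and 892 at 100 nM (5.52 ± 0.64 SE, adjusted p = 0.000257). At 30 nM it held 37, 55 and 81 (direct difference 4.17, adjusted p = 0.00233). hbbe2, another globin gene, went from 2541, 1487 and 2996 to 10977, 6708 and 10962 (2.05 ± 0.29 SE, adjusted p = 0.000872), and slc25a38a, of mitochondrial glycine import for haem, from 43, 77 and 44 to 133, 270 and 166 (1.77 ± 0.28 SE, adjusted p = 0.00156). Globin genes have near-identical copies, so single globins are uncertain. In the endothelium list 8 of 37 genes rose and 1 fell, a share of 24.3% against 17.5% of all genes. There were 16 rises without control replicate 2 and 5 with only the 6 libraries. Besides lyve1a, vsg1, which the name table pairs with plvapb, a gene of fenestrated vessels, rose from 297, 919 and 452 to 1569, 2241 and 1807 (1.89 ± 0.32 SE, adjusted p = 0.00235).

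Claudins, the seal proteins of tight junctions, rose in 9 of 34 cases with none lower, 5 with only the 6 libraries. The claudin list is a gene family, and whole-larva RNA does not tell which tissue the rises came from. cldn7a went from 505, 836 and 601 to 2742, 2431 and 2474 (2.01 ± 0.17 SE, adjusted p = 3.65e-05) and cldnc from 345, 601 and 400 to 1061, 1656 and 1010 (1.47 ± 0.24 SE, adjusted p = 0.00184). Epidermis and periderm markers rose in 9 of 49 cases and fell in 1, a share of 20.4% against 17.5% of all genes. The rises ran from 2 without control replicate 3 or 100 nM replicate 1, 3 without 100 nM replicate 3 and 4 without control replicate 2 to 14 without control replicate 1. There was 1 in the 6 libraries alone. Among ionocytes, the skin cells that exchange salts and ammonia with the water, 2 Rhesus ammonium channel genes, rhcgl1 and rhcga, fell. rhcgl1 went from 6776, 1825 and 4662 to 690, 210 and 230 (−3.58 ± 0.50 SE, adjusted p = 0.000807), and rhcga from 5470, 1544 and 2554 to 721, 571 and 532 (−2.21 ± 0.34 SE, adjusted p = 0.00135). In both genes control replicate 2 was the lowest control and still lay above every treated library. The ionocyte list as a whole had 7 rises and 4 falls of 45, a share of 24.4% against 17.5% of all genes. Its summed level did not fall, at 112956 to 149523 in the controls and 130080 to 150379 at 100 nM. The rises numbered 11 without control replicate 1, 3 without control replicate 3, 4 without 100 nM replicate 3 and 0 with only the 6 libraries.

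**Figure D5:**
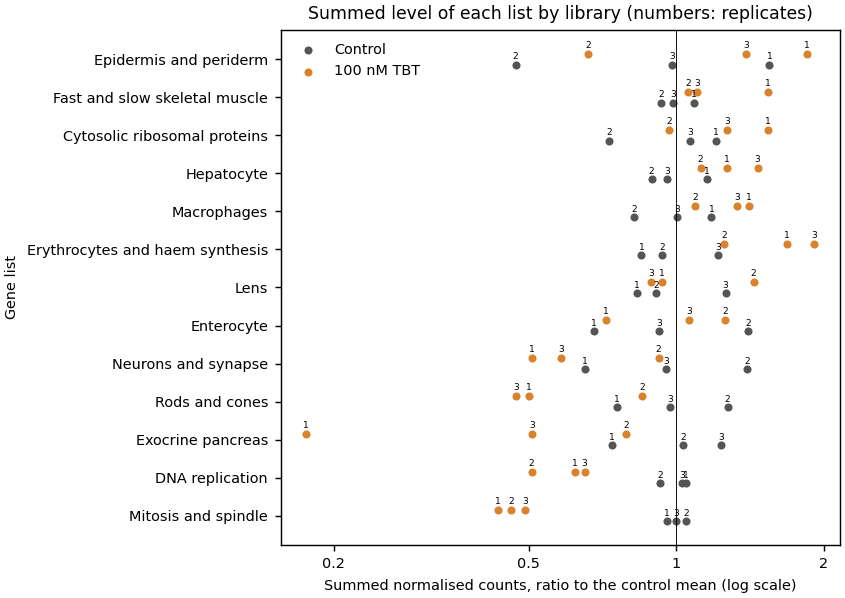
Summed normalised counts of 13 gene lists in each library, as a ratio to the control mean (log scale); grey points are controls, orange points 100 nM, and numbers are replicates. The mitosis sums of the treated libraries (11324 to 12831) lie below those of the controls (24980 to 27368), whereas the epidermis sums overlap and replicate 2 is the lowest of each group.

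By absolute change in normalised counts the largest rises were structural and metabolic genes. bhmt, the gene of a liver enzyme that remakes methionine from betaine, went from 31130, 25020 and 28400 to 70710, 58517 and 77405 (1.29 ± 0.15 SE, adjusted p = 0.000283) and kept its call with each library left out. actb2, a beta-actin gene often used as a reference for PCR, went from 205809, 147961 and 172283 to 459845, 299271 and 342748 (1.06 ± 0.25 SE, adjusted p = 0.0146), a call lost without control replicate 3 and with only the 6 libraries. krt91, a keratin gene, held 141543, 42598 and 98630 against 386994, 144572 and 261799 (1.54 ± 0.46 SE, adjusted p = 0.0413), so that the lowest treated library lay just above the highest control, and it lost its call without control replicate 2 or 3, without 100 nM replicate 1 or 3 and with only the 6 libraries. atp2a1, a muscle calcium pump gene, and apoeb, an apolipoprotein E gene, rose by 0.79 (adjusted p = 0.0329) and 0.97 (adjusted p = 0.02). Both lost their calls with only the 6 libraries and without any of 4 libraries, namely control replicates 1 and 3 and 100 nM replicates 1 and 2 for atp2a1, and control replicates 2 and 3 and 100 nM replicates 1 and 3 for apoeb. Without a filter on low values atp2a1 and krt91 lost theirs too, and atp2a1 also with equal totals. The largest falls in counts were opn1sw1, gnat2, a cone transducin gene (−1.77, adjusted p = 0.00129), and 3 pancreatic protease genes, ela2, ela2l and prss59.1.

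Several large groups had few calls. None of 82 cytosolic ribosomal protein genes passed the limma test, although all 82 differences were positive with a median of 0.35 (0.16 with equal totals), and 7 had an unadjusted p below 0.05. There were 4 rises without 100 nM replicate 2 and 2 without control replicate 1. With the replicate number as a block on 12 libraries, 50 rose. Their sums, 1600599 to 2644923 in the controls and 2124503 to 3380255 at 100 nM, were lowest in replicate 2 of each group. Genes of ribosome biogenesis rose in 3 of 77 cases and fell in 2, with 8 rises without control replicate 1 and 1 without control replicate 3, and 8 falls with equal totals. Zinc finger genes named znf rose in 9 of 294 cases and fell in 8 (5.78%). Their falls numbered 16 without control replicate 1, 18 without 100 nM replicate 2 or with equal totals, and 4 without control replicate 3 or 100 nM replicate 1. None of 13 genes encoded by mitochondrial DNA passed the limma test, with 3 of them at an unadjusted p below 0.05, and 1 fell without 100 nM replicate 2 or with equal totals.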

How the data were processed

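RNA-seq libraries of 12 pools of zebrafish larvae were given as tables of values per gene. The authors deposited them as a score: per the file headers these are normalised counts, scaled by a factor per library and rounded to whole numbers, so they are not raw counts and the raw depth per gene cannot be read from them. Build GRCz10 and the tools DESeq2 1.10.1, RSEM 1.2.28, STAR 2.5.1b and CASAVA appear in the submitters' processing notes, with no role or order given. Whether counting used strand is not stated there, so antisense genes are uncertain. Genes with near-identical copies, such as opsins, globins, elastases and inducible HSP70 genes, are uncertain too. Of the 26816 gene IDs, 24005 matched the name table used here.

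Genes with at least 10 normalised counts in at least 3 libraries, 22404 in all, were tested on log2(value + 1) with limma 3.58.1 in R 4.3.3 (group model on all 12 libraries, eBayes with a variance trend, Benjamini-Hochberg threshold 0.05). Fold changes on this scale understate those of low genes. The alternatives were a pseudocount of 5, no filter or a filter at 50, equal totals, a fit of the 6 libraries alone, the replicate number as a block, no variance trend and each of the 6 libraries left out. The method was tested on simulated data drawn for each gene separately, with no effect shared between replicates. That test does not tell how the method behaves with such an effect.

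Gene lists numbered 106, of 33 pathways, 30 tissue or cell types and 43 families, with 2294 of 2408 symbols found. They are described by counts and medians. Members, lists and comparisons were chosen with earlier results of these data known. Genes were named by rule. The first rule took the 8 rises and falls of lowest p with a mean of at least 100 and groups that did not overlap. Others took the 5 largest rises and falls in normalised counts, and up to 6 each way at 3 or less in one group and 20 or more in the other. The remaining rules took the 3 largest changes in each list with 2 or more calls, and 4 each way called only with the block. A gene named for any other reason was picked with its values in view. The text says so, or gives the gene as the exception of its list, as for pttg1, cdt1 and gusb. A planned look at promoter motifs was not run, since no sequence of the files' build was used here. The text covers only some of the lists.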

Additional observations from a re-analysis of the deposited data

How the results depend on the processing

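No called gene named here changed direction under an alternative, while list medians near 0 did. With equal totals that of liver X receptor targets and fatty acid synthesis went from 0.07 to −0.11. The number of genes called was between 3653 and 3992 with the other pseudocount, filters, scaling or no variance trend. It was 1172 with only the 6 libraries, where the spread rests on fewer samples, and 2289 to 4621 with a library left out, lowest without control replicate 3. The higher genes numbered 1127 with equal totals, 708 with only the 6 libraries and 1286 to 2401 with a library left out. The lower genes numbered 2865 with equal totals, 464 with only the 6 libraries and 1003 to 2226 with a library left out. Lists with at least 50.0% of their tested members called numbered 9 as reported, 15 with the filter at 50, 1 with only the 6 libraries and 4 to 15 with a library left out. The share called among genes with a mean of 1000 to 10000 was 8.09% with only the 6 libraries and 15.8% to 30.4% with a library left out. The share of long intergenic noncoding genes was 4.22% without a filter, 3.35% with only the 6 libraries and 5.02% to 12.7% with a library left out. Of 291 called genes named by rule or afterwards, 30 lost their call with equal totals, 112 of 290 with only the 6 libraries and 27 to 79 with a library left out. The causes were not tested.

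Replicate numbers were checked for pairing. The deviations from the group means of same-numbered control and 100 nM libraries correlated across 22404 genes at 0.563, 0.578 and −0.02 for numbers 1, 2 and 3. Control replicate 1 with 100 nM replicate 2 gave −0.603, and control replicate 2 with 100 nM replicate 1 gave −0.542. Deviations within a group of 3 cancel out, so the value of number 3 follows largely from the others and cannot decide on pairing. Numbers 1 and 2 thus shared a pattern across the 2 groups. The labels do not say what a number marks, and the main fit has no block. Control replicate 3 correlated at −0.031, 0.039 and −0.02 with 100 nM replicates 1, 2 and 3, values that likewise cannot decide on its pairing. With the replicate block on 12 libraries 7678 genes were called, 3790 higher and 3888 lower, and all 3926 calls of the fit without it were among them. With the replicate block on the 6 libraries 6250 were called, 3114 higher and 3136 lower. The block gave 49 and 37 lists with at least 50.0% called, 48.1% and 40.6% of genes at a mean of 1000 to 10000, and 24.0% and 22.2% of long intergenic noncoding genes. Of the lists with few calls, cytosolic ribosomal proteins had 50 rises of 82 with the replicate block on 12 libraries, and neurons and synapse 36 falls and 1 rise of 60. Genes of lowest p called only with the block were CABZ01073832.1, mmp30, hspa4l and slc16a12a among the lower and hsp90aa1.2, capgb, pir and sepw2b among the higher.

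Precision is limited by 3 pools per group, and for genes with a mean under 30 by a median standard error of 0.41 on the log2 scale.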

Other observations

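A few single genes of muscle are given here by their values. chrng, the gene of the embryonic acetylcholine receptor subunit of muscle, held 77, 122 and 97 normalised counts in the controls and 472, 560 and 428 at 100 nM (log2 fold change 2.31 ± 0.18 SE, limma adjusted p = 2.31e-05). DUSP27, a phosphatase-like gene of muscle, went from 1027, 1559 and 1163 to 5381, 6471 and 3117 (1.95 ± 0.26 SE, adjusted p = 0.000512), and trim55b, of a family of sarcomere ubiquitin ligases, from 151, 330 and 221 to 771, 830 and 508 (1.62 ± 0.25 SE, adjusted p = 0.00145). Of 59 genes of fast and slow muscle proteins themselves, 7 rose and 2 fell, a share of 15.3% that is close to the 17.5% of all genes. The rises numbered 15, 4 and 2 without control replicates 2, 1 and 3, 2 without 100 nM replicate 1, 1 with only the 6 libraries and 3 under equal totals. The muscle atrophy ligase gene trim63a, chosen after its values were seen, held 2060, 2082 and 1515 against 4650, 4922 and 2590 (1.06, adjusted p = 0.0174), a call lost without control replicate 3 or 100 nM replicate 1 and with only the 6 libraries, and 3649, 4174 and 2498 at 30 nM (direct difference 0.21, adjusted p = 0.715).

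Of 80 cytochrome P450 genes, 18 rose and 7 fell (31.2% called, median 0.10, or −0.09 with equal totals, where 11 rose and 9 fell). With only the 6 libraries 8 rose and 2 fell, and the falls numbered 3 without 100 nM replicate 3 and 4 without 100 nM replicate 1. cyp24a1, which degrades active vitamin D, went from 1372, 1757 and 1062 to 5172, 11407 and 5614 (2.34 ± 0.35 SE, adjusted p = 0.00108), and cyp27b1, which makes it, from 25, 45 and 32 to 5, 10 and 6 (−2.14 ± 0.32 SE, adjusted p = 0.0011). cyp2k18, of a family with near-identical copies, held 135, 606 and 228 against 2604, 11251 and 2774 (4.02 ± 0.65 SE, adjusted p = 0.00172), with replicate 2 highest in both groups, and 3185, 5732 and 3488 at 30 nM (direct difference 0.12, adjusted p = 0.948). cyp1b1 went from 95, 100 and 106 to 525, 345 and 516 (2.17 ± 0.18 SE, adjusted p = 4.2e-05). Among clock genes, nr1d4b, of the REV-ERB family, went from 34, 54 and 48 to 162, 233 and 150 (1.98 ± 0.25 SE, adjusted p = 0.000406), and nfil3 from 1180, 980 and 1004 to 3296, 2577 and 2688 (1.43 ± 0.12 SE, adjusted p = 4.74e-05). The clock list had 12 rises and 2 falls of 35. There were 7 rises and 2 falls without control replicate 3, and 5 and 2 with only the 6 libraries. With equal totals 5 rose and 5 fell. slc16a9a, the paralog of slc16a9b, rose as well, from 457, 795 and 410 to 3638, 4241 and 3381 (2.81 ± 0.22 SE, adjusted p = 2.65e-05), and glula, the glutamine synthetase gene, from 8006, 10057 and 9006 to 26227, 26708 and 26427 (1.56 ± 0.14 SE, adjusted p = 4.94e-05).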
